A study of Homo sapiens with 18 samples.

Results

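The transcripts followed here are those of 49 genes of mitosis, the spindle and the kinetochore, named in a list that was drawn up with earlier results of these data known. An array feature of its own was found for 48 of the 49, 1 feature each, among 22465 genes that features name alone. The only feature of BUB1B also names PAK6, so BUB1B is given no value. All 48 passed the filter on low values, as did 16336 genes in all, and the 48 are the members described below. Of these, 33 lay above the median of the array on all 18 arrays, 6 did so on the DMSO arrays only (CDC25C, NEK2, PTTG1, SPC25, KIF14 and KIF15), and 9 on the DMSO arrays and some of the erlotinib arrays.

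RNA came from HCC4006, an EGFR mutant line of lung adenocarcinoma, grown as a bulk culture. Cells were transfected with siRNA against Notch3 (N3), siRNA against Notch1 (N1) or a non-targeting control siRNA (NTC), and each was given 0.1 µM erlotinib, a tyrosine kinase inhibitor (TKI) of EGFR, or its vehicle DMSO. This gave 6 groups, N3 erlotinib, N1 erlotinib, NTC erlotinib, N3 DMSO, N1 DMSO and NTC DMSO, with 3 arrays each. The labels give the time on treatment as 5 days, and the text of the study gives 6 days. Every group carried an siRNA, and each Notch receptor was targeted by a single siRNA sequence in a single cell line. The N3 erlotinib arrays are numbered 4 to 6 and those of the other groups 1 to 3, so separate handling of that group, if any, and Notch3 knockdown in erlotinib cannot be told apart. Nothing in the labels says that the 3 arrays of a group are separate cultures, so p-values measure the spread between arrays, which may be technical. In bulk RNA, fewer dividing cells and less RNA per dividing cell cannot be told apart.

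Levels below are log2 signal on the GeneChip Human Transcriptome Array 2.0 after robust multi-array average (RMA). Array medians ran from 4.84 to 5.01, and arrays of the same group correlated at 0.992 to 0.997 across features. All 6 epithelial markers and all 5 lung adenocarcinoma markers checked were above the array median on all 18 arrays. Of the others, 5 of 7 lymphoid and myeloid and 3 of 5 fibroblast markers were below it on all 18. The exceptions were CD68, COL1A1 and COL1A2, above it on all 18 arrays, and CD14, above it on 9. Of 4 endothelial markers, VWF and KDR were above it on all 18 arrays, CDH5 was above it on 15 and PECAM1 was below it on all 18. The log2 change of NOTCH3 with N3 was -0.57 both in erlotinib and in DMSO (limma, adjusted p = 4.11e-06 and 5.75e-06). That of NOTCH1 with N1 was -0.30 in DMSO (adjusted p = 0.000291), and in erlotinib, at -0.08, it did not pass the threshold (adjusted p = 0.214). NOTCH3 itself was higher in N1 erlotinib than in NTC erlotinib, by 0.25 (adjusted p = 0.00818).

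A cell enters mitosis when cyclin B with CDK1 becomes active. Kinases of the Polo and Aurora families, kinesin motors and microtubule binding proteins then build the spindle, the kinetochore ties each chromosome to it, and the spindle checkpoint holds back the anaphase-promoting complex until all chromosomes are attached. Most of these genes are transcribed late in the cell cycle, by MYBL2 and FOXM1 with the MuvB core, and are held down in resting cells by the DREAM complex, which binds a short promoter element named the cell cycle genes homology region (CHR). CCAAT boxes bound by NF-Y lie next to it in many such promoters. EGFR signalling drives cells into the cycle, and the level of these transcripts in a culture is widely read as a gauge of how many of its cells divide.

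The promoter stretches of 9 members are shown because the members moved together with erlotinib while KIF18A and ECT2 moved apart from the others with N3. They are RefSeq sequences of build GRCh38.p14 from position -110 to 20 around the annotated start, read on the strand of the gene. Capitals mark TTTGAA or TTTAAA (the CHR letters) and CCAAT, searched on both strands, so that ATTGG is CCAAT on the other strand. In the run TTTGAATTGG, TTTGAA and ATTGG overlap.
CCNB2, chr15:59105036-59105165, plus strand: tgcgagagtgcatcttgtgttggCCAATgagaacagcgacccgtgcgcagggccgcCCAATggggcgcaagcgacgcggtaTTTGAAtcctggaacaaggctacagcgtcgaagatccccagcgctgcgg
PLK1, chr16:23678779-23678908, plus strand: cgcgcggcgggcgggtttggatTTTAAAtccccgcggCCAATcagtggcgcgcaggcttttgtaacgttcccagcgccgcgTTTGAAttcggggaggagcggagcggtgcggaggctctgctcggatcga
CDC20, chr1:43358871-43359000, plus strand: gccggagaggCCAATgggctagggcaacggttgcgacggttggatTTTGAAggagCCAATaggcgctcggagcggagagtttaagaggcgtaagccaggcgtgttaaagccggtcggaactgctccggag
MKI67, chr10:128126404-128126533, minus strand: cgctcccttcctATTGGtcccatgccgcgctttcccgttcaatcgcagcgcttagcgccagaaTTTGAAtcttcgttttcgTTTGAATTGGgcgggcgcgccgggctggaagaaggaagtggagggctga
KIF4A, chrX:70289994-70290123, plus strand: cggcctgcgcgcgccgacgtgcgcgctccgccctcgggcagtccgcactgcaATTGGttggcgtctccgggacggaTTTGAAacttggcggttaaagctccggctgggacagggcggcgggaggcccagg
PRC1, chr15:90994516-90994645, minus strand: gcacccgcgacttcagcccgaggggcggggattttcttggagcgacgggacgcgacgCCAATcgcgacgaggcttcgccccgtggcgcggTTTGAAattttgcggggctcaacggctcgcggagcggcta
HMMR, chr5:163460522-163460651, plus strand: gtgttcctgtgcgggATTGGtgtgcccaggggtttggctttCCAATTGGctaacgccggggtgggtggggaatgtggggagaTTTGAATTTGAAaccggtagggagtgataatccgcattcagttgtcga
KIF18A, chr11:28108137-28108266, minus strand: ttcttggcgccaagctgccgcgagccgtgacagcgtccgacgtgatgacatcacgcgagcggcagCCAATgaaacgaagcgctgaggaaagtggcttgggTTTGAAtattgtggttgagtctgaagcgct
ECT2, chr3:172750616-172750745, plus strand: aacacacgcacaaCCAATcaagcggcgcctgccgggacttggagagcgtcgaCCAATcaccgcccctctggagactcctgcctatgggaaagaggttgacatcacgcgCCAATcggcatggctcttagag

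TTTGAA began at position -29 in CCNB2 and PLK1, at -34 in KIF4A and at -20 in PRC1. MKI67 held it at -47 and -29, and HMMR at -28 and -22 in tandem. It lay farther out in CDC20, at -65, and nearer the start in KIF18A, at -10. The stretch shown for ECT2 held CCAAT 3 times and no TTTGAA or TTTAAA, and its longer window held TTTGAA at -115 and 35. A second RefSeq start of ECT2, not shown, had TTTGAA at -242 and -182 in its window and no CCAAT. RefSeq windows of 250 bases before to 50 after a start were found for 43 of the 49 genes, with 50 windows in all. TTTGAA or TTTAAA was in 82.0% of these member windows (41 of 50), against 8424 of all 35116 windows. By gene, 37 of 43 held TTTGAA or TTTAAA, against 27.9% of all genes with a window. CCNA2, NEK2, AURKB, BUB1, SGO1 and SPC24 held neither. All of these genes but BUB1 were called lower with N3 in erlotinib. By its longer windows ECT2 is among the 37, and any part of these letters in the changes was not tested. CCAAT was in 78.0% of member windows, against 34.6% of all windows. Both occurred in 64.0% of member windows, against 9.27% of all. Within 60 bases before to 20 after the start, 30 of 50 member windows held a CHR run, against 2422 of all 35116, or 6.9%. These are matches of letters, and binding was not measured.

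The first comparison asks what the EGFR inhibitor did to mitotic transcripts in cells with control siRNA. All 48 members fell with erlotinib, to a median of 14.9% of the DMSO level. The falls ran from -3.44 on the log2 scale for DLGAP5, a spindle assembly factor, to -1.06 for ESPL1, which encodes separase. By role, the median change ran from -3.13 for 4 genes of chromosome structure and proliferation to -2.07 for 8 genes of the centromere and kinetochore. In limma all 48 were called lower and 0 higher at an adjusted p under 0.05, and the highest adjusted p among them was 2.33e-09. Over all 16336 genes tested, 25.4% were called lower and 24.6% higher. Of the members, CDC25C, NEK2, PTTG1, SPC25, KIF14 and KIF15 passed the filter on low values through their DMSO arrays alone. For these 6 the filter itself favours a fall, so their calls add no separate support. With no such filter all 48 were called lower too. The median log2 fold change was -2.75 over the members and -0.02 over all genes tested. The Methods of the study combine a fold change of 2 with a limit on false positives, read here as an unadjusted p under 5e-04. At these Methods thresholds all 48 passed, against 2.28% of all genes. On no member did the NTC erlotinib and NTC DMSO arrays overlap, against 27.2% of all genes not overlapping and lower.

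**Figure D1:**
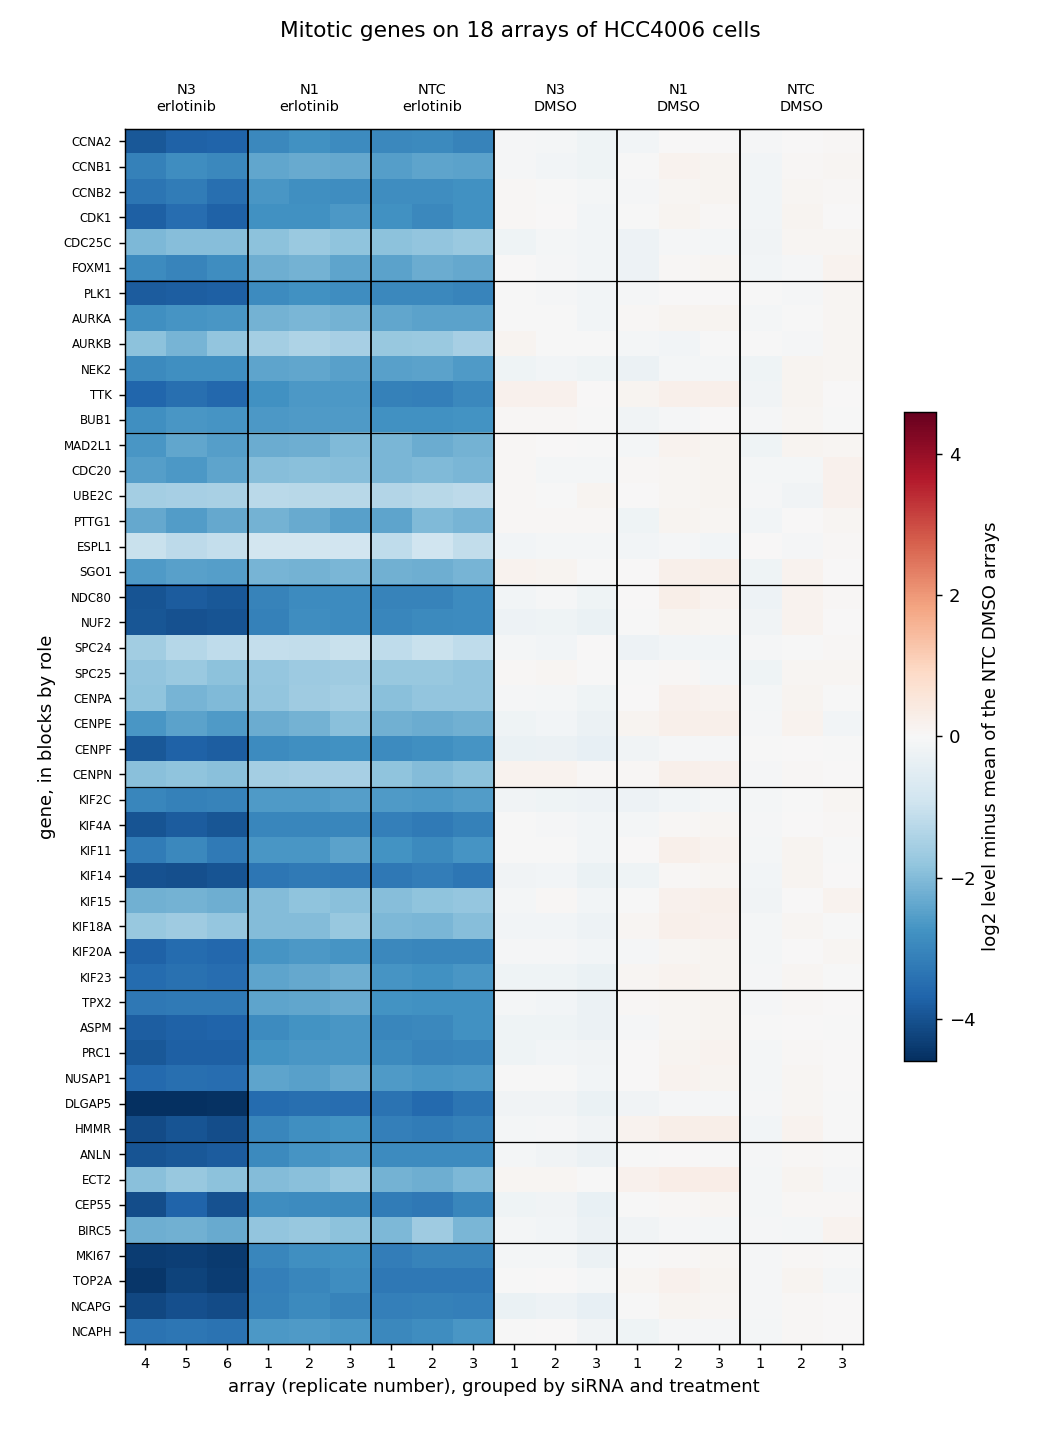
Log2 level of each of the 48 mitotic genes (rows, grouped by role) on each of the 18 arrays (columns, by group, 3 arrays each), shown as the difference from the gene's mean over the 3 NTC DMSO arrays. All 9 erlotinib arrays are low in every role and the 9 DMSO arrays lie near 0, and the 3 N3 erlotinib arrays are lowest for most genes.

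MKI67, whose protein Ki-67 coats mitotic chromosomes and is the common stain for proliferation, read 7.20, 7.32 and 7.29 on the NTC erlotinib arrays, against 10.33, 10.44 and 10.37 on the NTC DMSO arrays. The log2 fold change was -3.11 (standard error 0.06), which is 11.6% of the DMSO level. TOP2A, the topoisomerase that untangles sister chromatids, read 6.60, 6.61 and 6.61 in NTC erlotinib, against 9.85, 10.00 and 9.81 in NTC DMSO. Its fold change was -3.28 (standard error 0.07). The condensin I subunits NCAPG and NCAPH, which compact chromosomes, were at -3.14 and -2.83 with erlotinib.

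Among genes of entry into mitosis, CDK1 read 6.11, 5.91 and 6.10 in NTC erlotinib, against 8.74, 9.01 and 8.89 in NTC DMSO. CCNB1, cyclin B1, read 6.64, 6.76 and 6.71 in NTC erlotinib, against 9.06, 9.22 and 9.26 in NTC DMSO. FOXM1, the transcription factor of the late cell cycle, read 6.03, 6.20 and 6.13 in NTC erlotinib, against 8.36, 8.45 and 8.66 in NTC DMSO. The gap was wide for all 3, with log2 fold changes of -2.84, -2.48 and -2.37. The largest change of this role was that of CCNA2, cyclin A2, with 12.5% of its DMSO level left, and the smallest that of CDC25C, the phosphatase that activates CDK1, at -1.80.

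PLK1, the Polo kinase, was at 7.74, 7.74 and 7.66 in NTC erlotinib, against 10.66, 10.62 and 10.79 in NTC DMSO. TTK, the checkpoint kinase MPS1, fell most of the 6 kinases, with -3.07, and AURKB, the Aurora kinase of the chromosomal passenger complex, fell least, with -1.66. The changes were -2.77 for BUB1, another checkpoint kinase, and -2.45 for AURKA, the Aurora kinase of spindle poles. The kinases therefore kept between 11.9% (TTK) and 31.6% (AURKB) of their DMSO level.

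The 6 genes of the checkpoint, the anaphase-promoting complex and sister separation had a median change of -2.14. CDC20, an activator of that complex and the target of the checkpoint, read 6.80, 6.85 and 6.78 in NTC erlotinib, against 8.79, 8.81 and 9.08 in NTC DMSO. SGO1, shugoshin, which protects centromeric cohesin, fell by 2.20, as did PTTG1, securin. UBE2C, the ubiquitin-conjugating enzyme of the complex, fell by 1.28. ESPL1 had the smallest change of all members, with 5.50, 5.75 and 5.54 in NTC erlotinib, against 6.66, 6.59 and 6.73 in NTC DMSO. PTTG1 has closely similar copies in the genome, and its feature may read them too.

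The 4 subunits of the NDC80 complex, the microtubule anchor of the kinetochore, did not change by the same amount. NDC80 was at 4.84, 4.85 and 5.03 in NTC erlotinib, against 7.70, 8.09 and 7.97 in NTC DMSO. SPC24 was at 6.29, 6.43 and 6.27 in NTC erlotinib, against 7.39, 7.44 and 7.52 in NTC DMSO. The log2 fold changes were -3.01 for NDC80 and -2.94 for NUF2, the outer subunits, and -1.12 for SPC24 and -1.77 for SPC25, the inner subunits, with standard errors of 0.07 to 0.09. CENPF and CENPE, large proteins of the kinetochore corona, had changes of -2.81 and -2.23. CENPA, the histone variant of centromeres, and CENPN, which binds its nucleosome, had changes of -1.85 and -1.91.

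Changes of the kinesin motors ran from -3.27 (KIF14) to -1.86 (KIF15). KIF14, a motor of cytokinesis, read 4.47, 4.57 and 4.45 in NTC erlotinib, against 7.62, 7.89 and 7.78 in NTC DMSO. KIF15, a spindle motor, read 4.13, 4.24 and 4.32 in NTC erlotinib, against 5.92, 6.11 and 6.24 in NTC DMSO. Both were below the median of the array on all 3 NTC erlotinib arrays, as were 6 members in all. On the N3 erlotinib arrays 11 members were below it on all 3, the same 6 with TTK, NDC80, NUF2, HMMR and CEP55. No member was below it on all 3 arrays of a DMSO group. Background signal bounds such low values from below, and its part in the size of these falls, and of the differences between N3 and NTC cells in erlotinib, was not tested.

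Of the genes of spindle assembly, DLGAP5 read 6.44, 6.26 and 6.49 in NTC erlotinib, against 9.77, 9.93 and 9.81 in NTC DMSO. NUSAP1, a microtubule bundler, had the smallest change of these 6, with 6.20, 6.12 and 6.17 in NTC erlotinib, against 8.71, 8.91 and 8.81 in NTC DMSO, a change of -2.65. In cytokinesis, the change was -3.17 for CEP55, which recruits the machinery that cuts the midbody, and -2.88 for ANLN, anillin of the contractile ring. It was -2.16 for ECT2, the exchange factor that activates RhoA at the cleavage site, and -1.93 for BIRC5, survivin of the chromosomal passenger complex.

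The fall was also seen with both Notch siRNAs, and it was deepest with N3. All 48 members were called lower with erlotinib in N3 cells (limma, background 27.7% of genes lower and 24.9% higher) and all 48 in N1 cells (background 23.7% lower and 31.7% higher). The 6 members that passed the filter through DMSO arrays alone are counted here. For them the filter favours a fall with these siRNAs too, so their calls add no separate support. Without the filter all 48 were again called lower with N3 and with N1. The median log2 fold change was -3.09 with N3, -2.49 with N1 and -2.75 with NTC siRNA. That is 11.7%, 17.8% and 14.9% of the DMSO level of the same siRNA. The lowest value was again that of DLGAP5, at -4.41 with N3, -3.42 with N1 and -3.44 with NTC. At the Methods thresholds 48 passed with N3 (background 2.85%) and 46 with N1 (background 2.2%). ESPL1 and SPC24 were the exceptions with N1, with -0.74 and -0.92.

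The erlotinib effects with N3 and with NTC siRNA come from different arrays. The fall was larger with N3 than with NTC for 45 of 48 members, and larger with N1 than with NTC for 11 of 48. Across the 48 genes the effects with N3 and NTC correlated at r = 0.964 and those with N1 and NTC at r = 0.977. These correlations are descriptions over genes that share arrays within each effect.

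**Figure D2:**
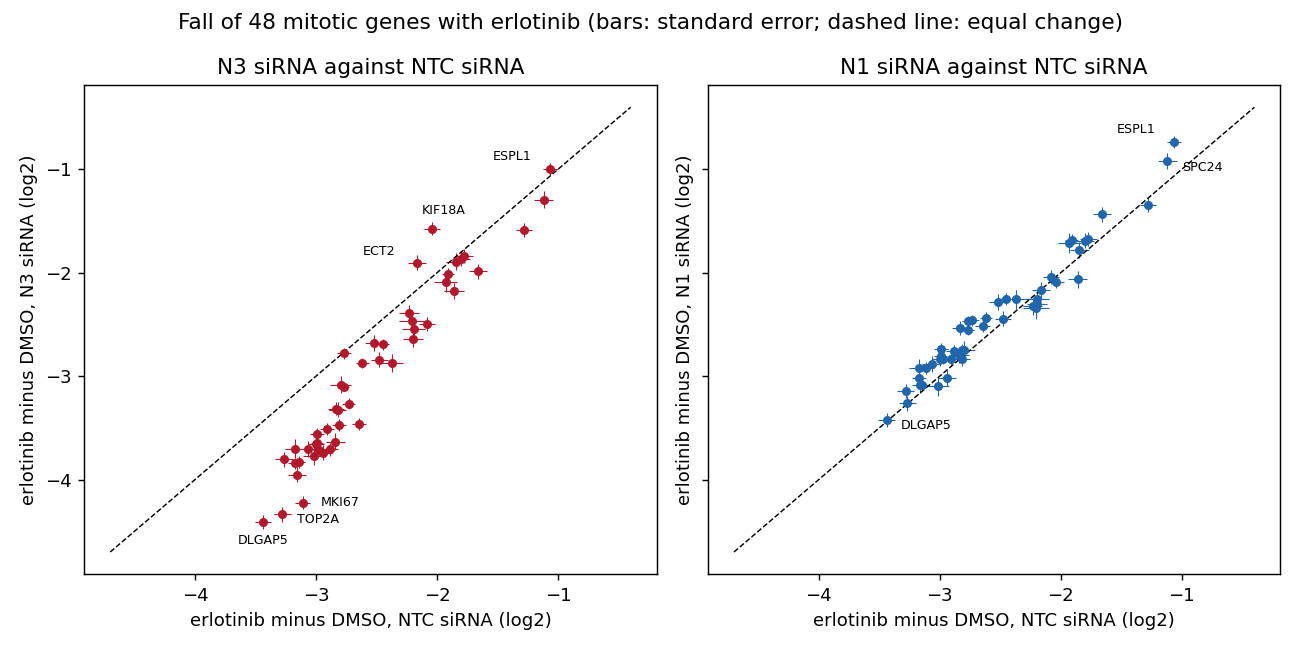
Log2 fold change with erlotinib (against DMSO) of each of the 48 genes with N3 siRNA (left, vertical axis) or N1 siRNA (right, vertical axis) against that with NTC siRNA (horizontal axis), with standard errors and a dashed line of equal change. On the left 45 of 48 points lie below the line, with KIF18A and ECT2 above it, and on the right 11 of 48 lie below it.

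The second comparison asks whether mitotic transcripts in erlotinib changed when Notch3 was knocked down. With N3 siRNA most of them were lower still. Of 48 members, 39 were called lower and 2 higher in N3 erlotinib than in NTC erlotinib, and 7 did not pass the test. Over all genes tested 10.5% were called lower and 7.93% higher. The median log2 fold change was -0.51 over the members, or 70.5% of the NTC level, and -0.01 over all genes. On the low side 39 members had no overlap between the N3 erlotinib and NTC erlotinib arrays, against 18.7% of all genes. They included CDC25C, which was not called, and left out SPC24, which was. The 2 called higher had no overlap on the high side, against 15.1% of all genes. The mean over the 48 members was 5.51 ± 0.04 in N3 erlotinib and 6.03 ± 0.03 in NTC erlotinib (SD of array means, n = 3 each).

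The largest differences were in chromosome structure and spindle assembly. MKI67 was at 6.01, 6.05 and 5.98 in N3 erlotinib, against 7.20, 7.32 and 7.29 in NTC erlotinib. On the log2 scale the difference was -1.26 (standard error 0.06, adjusted p = 7.09e-10), so that 41.9% of the NTC erlotinib level was left. DLGAP5 was at 5.11, 5.24 and 5.29 in N3 erlotinib, against 6.44, 6.26 and 6.49 in NTC erlotinib. TOP2A was at 5.40, 5.62 and 5.52 in N3 erlotinib, against 6.60, 6.61 and 6.61 in NTC erlotinib. For all 3 genes the N3 arrays sat about 1 log2 unit below the NTC arrays, with fold changes of -1.18 for DLGAP5 and -1.09 for TOP2A. With NUF2 (-1.04) and ANLN (-1.01) these were the 5 members past the Methods thresholds, against 0.0735% of all genes.

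All 6 spindle assembly genes were lower in N3 erlotinib, with a median of -0.85. After DLGAP5 came HMMR, a spindle pole and hyaluronan binding protein, at -0.90, NUSAP1 at -0.87, ASPM, which organises spindle poles, at -0.82, and PRC1, which bundles microtubules of the midzone, at -0.81. TPX2, the activator of Aurora A, had the smallest change of the group, with 7.14, 7.20 and 7.20 in N3 erlotinib, against 7.71, 7.65 and 7.66 in NTC erlotinib. All 4 genes of chromosome structure and proliferation were lower, with a median of -1.04.

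Of the entry genes 5 of 6 were lower. CDK1 was at 5.14, 5.37 and 5.17 in N3 erlotinib, against 6.11, 5.91 and 6.10 in NTC erlotinib, a change of -0.81 (standard error 0.08, adjusted p = 1.89e-06). CCNB1 was at 6.08, 6.33 and 6.22 in N3 erlotinib, against 6.64, 6.76 and 6.71 in NTC erlotinib, and FOXM1 fell by 0.55. CDC25C, at 4.48, 4.57 and 4.58 in N3 erlotinib against 4.65, 4.74 and 4.84 in NTC erlotinib, did not pass the test (-0.20, adjusted p = 0.0766).

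Among the kinases PLK1 was at 6.86, 6.90 and 6.95 in N3 erlotinib, against 7.74, 7.74 and 7.66 in NTC erlotinib, a change of -0.81. The changes were -0.52 for TTK, -0.34 for NEK2, which separates centrosomes, and -0.30 for AURKA and for AURKB. BUB1 stood apart, with 5.96, 6.09 and 6.07 in N3 erlotinib, against 6.00, 6.00 and 6.04 in NTC erlotinib. Its change of 0.03 (standard error 0.06, adjusted p = 0.824) came beside one of -2.77 with erlotinib in NTC cells.

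CDC20 was at 6.37, 6.25 and 6.45 in N3 erlotinib, against 6.80, 6.85 and 6.78 in NTC erlotinib, a change of -0.45. The changes of SGO1, of MAD2L1, the checkpoint protein MAD2, and of UBE2C were -0.34, -0.33 and -0.24. PTTG1, at 4.37, 4.17 and 4.38 in N3 erlotinib against 4.31, 4.70 and 4.58 in NTC erlotinib, and ESPL1, at 5.63, 5.46 and 5.57 against 5.50, 5.75 and 5.54 in NTC erlotinib, overlapped between groups and did not pass the test. Of this role 4 of 6 were called lower.

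In the kinetochore 5 of 8 were lower, and the outer and inner subunits of the NDC80 complex again had unlike values. NUF2 was at 4.23, 4.14 and 4.18 in N3 erlotinib, against 5.17, 5.23 and 5.26 in NTC erlotinib, and NDC80 changed by -0.88. SPC25 was at 4.65, 4.73 and 4.58 in N3 erlotinib, against 4.70, 4.71 and 4.63 in NTC erlotinib, a change of -0.03 (standard error 0.07). SPC24 was called at -0.24, with an adjusted p of 0.0449. CENPF was at -0.98 and CENPE at -0.35. CENPA, at 5.81, 5.52 and 5.60 in N3 erlotinib against 5.74, 5.82 and 5.84 in NTC erlotinib, did not pass (adjusted p = 0.21). CENPN, at 6.76, 6.82 and 6.77 in N3 erlotinib against 6.83, 6.70 and 6.78 in NTC erlotinib, changed by 0.01 (adjusted p = 0.911). Of the 7 members that did not pass, CDC25C, PTTG1 and SPC25 were at or below 4.84, the lowest array median, in both erlotinib groups, while BUB1, CENPA, CENPN and ESPL1 were above the highest array median, 5.01.

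The 2 members called higher in N3 erlotinib were a kinesin and a cytokinesis gene. KIF18A, the motor that damps chromosome movement at the metaphase plate, was at 6.97, 7.08 and 6.94 in N3 erlotinib, against 6.67, 6.63 and 6.76 in NTC erlotinib. All 3 N3 arrays were above all 3 NTC arrays, a difference of 0.31 on the log2 scale (standard error 0.07, adjusted p = 0.00265). ECT2 was at 7.37, 7.53 and 7.38 in N3 erlotinib, against 7.10, 7.02 and 7.22 in NTC erlotinib, a change of 0.31 (standard error 0.07, adjusted p = 0.00643). The changes of the other 7 kinesins, all called lower, ran from -0.76 (KIF23, of the central spindle) to -0.35 (KIF11, the motor of spindle bipolarity). Both still fell with erlotinib, KIF18A with -1.57 in N3 cells and -2.04 in NTC cells, and ECT2 with -1.90 in N3 cells and -2.16 in NTC cells.

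Some of the smaller calls rested on single arrays. Without N3 erlotinib replicate 4 the adjusted p was 0.245 for SPC24, 0.119 for MAD2L1 and 0.074 for UBE2C. Without NTC erlotinib replicate 2 it was 0.134 for BIRC5, and without N3 erlotinib replicate 5 it was 0.0595 for AURKB. The count of members called lower ran from 35 to 38 when each array was left out in turn.

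**Figure D3:**
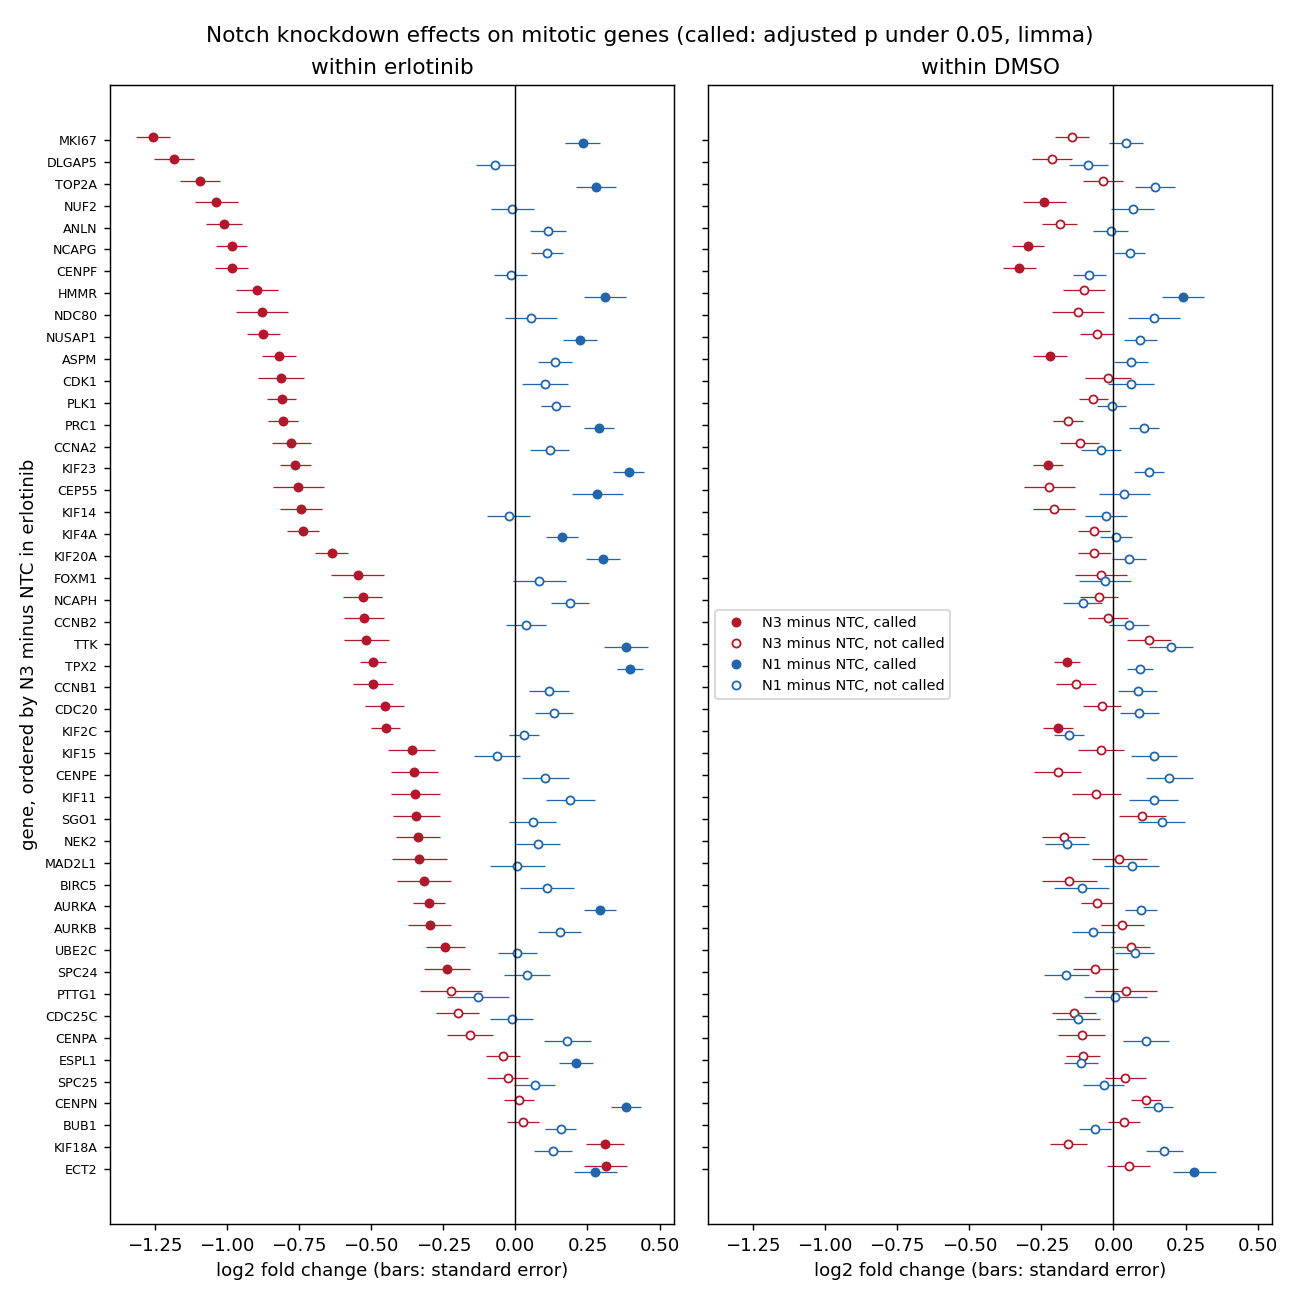
Log2 fold change of each of the 48 genes with N3 siRNA (red) and N1 siRNA (blue) against NTC siRNA within erlotinib (left) and within DMSO (right), with bars of 1 standard error, filled points for an adjusted p under 0.05 (limma) and genes ordered by the N3 effect in erlotinib. In erlotinib the red points run from -1.26 (MKI67) to 0.31 (ECT2), and the blue points from -0.13 to 0.40. In DMSO red and blue points lie between -0.33 and 0.28.

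Notch1 knockdown served as the comparison with another Notch receptor. In erlotinib, as given above, NOTCH1 RNA did not pass the test with N1 and NOTCH3 RNA was higher. By array RNA, the N1 contrast there is therefore not one of lower NOTCH1 at an unchanged NOTCH3 level. For protein, the paper reports from Western blots that each knockdown was specific to its target and appeared complete. In erlotinib no member was called lower with N1, and 15 of 48 were called higher. Over all genes tested 9.15% were called lower and 11.9% higher in this comparison (limma). At an unadjusted p under 0.05, 0 members were lower and 21 higher with N1. The share over all genes at that limit was not counted, so 21 is not read as a result about the members. The N3 and N1 comparisons share the NTC erlotinib arrays. The median log2 fold change with N1 was 0.13 over the members and 0.03 over all genes.

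TPX2 was at 8.03, 8.06 and 8.12 in N1 erlotinib, against 7.71, 7.65 and 7.66 in NTC erlotinib, a change of 0.40 (standard error 0.04, adjusted p = 1.06e-05). KIF23 was at 7.20, 7.28 and 7.38 in N1 erlotinib, against 6.90, 6.85 and 6.93 in NTC erlotinib. CENPN was at 7.12, 7.17 and 7.17 in N1 erlotinib, against 6.83, 6.70 and 6.78 in NTC erlotinib. In each of the 3 genes the N1 arrays lay above all NTC arrays, with changes of 0.39 for KIF23 and 0.38 for CENPN. TTK rose by 0.38, HMMR by 0.31 and KIF20A, a motor of the central spindle, by 0.30. AURKA and PRC1 rose by 0.29, and CEP55, TOP2A and ECT2 by 0.28. MKI67 rose by 0.23, NUSAP1 by 0.22, ESPL1 by 0.21 and KIF4A, the chromokinesin, by 0.16. None of the 6 entry genes passed, with values from -0.01 to 0.12. ECT2 was the 1 member called higher with both N3 and N1 in erlotinib. Left out arrays ended 5 of the 15 calls, with adjusted p up to 0.16 for KIF4A without NTC erlotinib replicate 2, 0.105 for CEP55 and 0.0957 for ESPL1 without NTC erlotinib replicate 1, 0.0637 for ECT2 without N1 erlotinib replicate 3 and 0.0536 for MKI67 without NTC erlotinib replicate 1.

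Set directly against each other in erlotinib, N3 was below N1 for 42 members and above it for 1, and 5 did not pass (limma). The background was 20.9% of all genes lower and 13.8% higher. The median log2 fold change was -0.62 over the members and -0.05 over all genes. At the Methods thresholds 11 members passed, against 0.19% of all genes. MKI67 had the largest difference, -1.49, followed by TOP2A at -1.37, HMMR at -1.21 and KIF23 at -1.16. The member above was KIF18A, at 6.97, 7.08 and 6.94 in N3 erlotinib against 6.73, 6.75 and 6.97 in N1 erlotinib. These arrays overlapped, the adjusted p was 0.0413, and it was 0.179 without N3 erlotinib replicate 5. BUB1, PTTG1, SPC25, CDC25C and ECT2 did not pass.

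**Figure D4:**
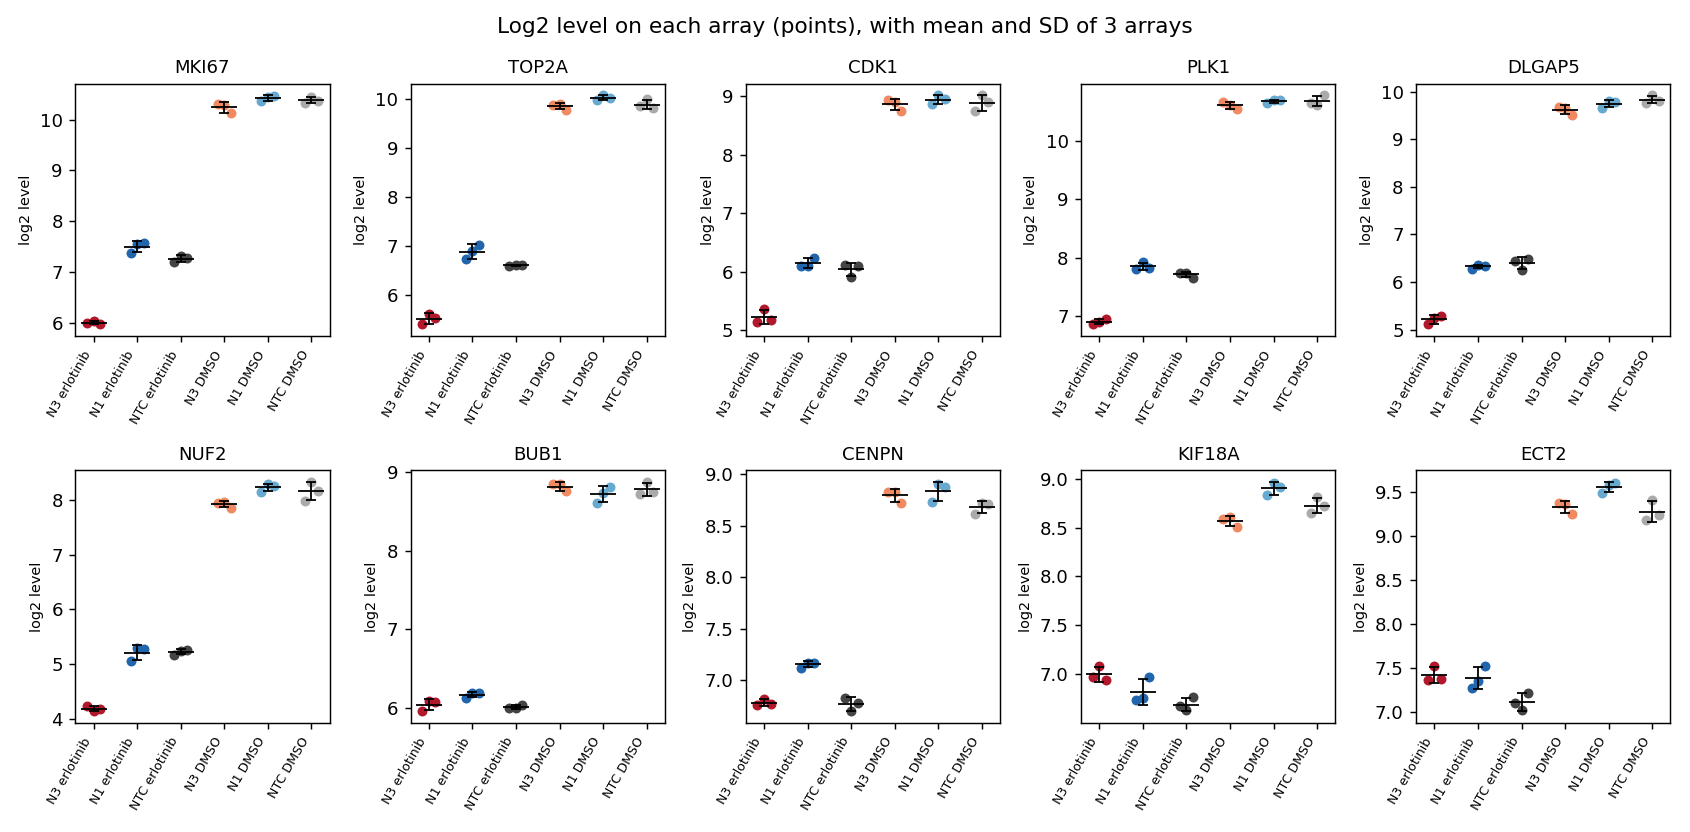
Log2 signal on each array (points) with the mean (bar) and SD of each group for 10 members chosen by role and as exceptions, in the 6 groups from N3 erlotinib to NTC DMSO, 3 arrays each. MKI67 and TOP2A are lowest in N3 erlotinib, BUB1 and CENPN show no such step, and KIF18A and ECT2 are higher in N3 erlotinib than in NTC erlotinib.

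In DMSO the same knockdowns changed few members, and by less. With N3, 7 of 48 were called lower and 0 higher than with NTC, where the background was 4.8% lower and 7.24% higher. The median log2 fold change was -0.09 over the members and -0.02 over all genes. CENPF averaged 8.95 ± 0.06 in N3 DMSO and 9.28 ± 0.03 in NTC DMSO (SD, n = 3 each), a change of -0.33 (standard error 0.06, adjusted p = 0.000766). NCAPG fell by 0.30, NUF2 by 0.24, KIF23 by 0.23, ASPM by 0.22, KIF2C, a kinesin that takes microtubules apart, by 0.19 and TPX2 by 0.16. MKI67 was at 10.30, 10.29 and 10.12 in N3 DMSO, against 10.33, 10.44 and 10.37 in NTC DMSO, a difference of -0.14 that did not pass (adjusted p = 0.142). At an unadjusted p under 0.05 there were 16 lower and 1 higher. The share over all genes at that limit was not counted, so this count is not read as a result about the members. The count lower was 3 without NTC DMSO replicate 2 and 4 without replicate 3 of that group. It was 2 without N3 DMSO replicate 3.

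With N1 in DMSO, 2 of 48 were called higher and 0 lower than with NTC, on a background of 7.75% of genes higher and 6.97% lower. The members called were ECT2, at 9.49, 9.58 and 9.60 in N1 DMSO against 9.18, 9.41 and 9.24 in NTC DMSO, and HMMR, at 8.84, 8.94 and 8.96 in N1 DMSO against 8.53, 8.85 and 8.64 in NTC DMSO. In HMMR a single N1 array lay just under the highest NTC array. At an unadjusted p under 0.05 there were 7 higher and 1 lower. This count too is not read as a result about the members, since the share over all genes at that limit was not counted. Arrays of the same number deviated together in these 2 groups, and a fit of their 6 arrays with the replicate number as a block gave 8 higher and 2 lower. The share of all genes called in that fit was not counted, so these counts are not read as a result about the members. Without NTC DMSO replicate 1 there were 0 higher and 2 lower, and the median over the members was -0.0025, against 0.06 with all arrays. The count higher was also 0 when N1 DMSO replicate 2 or N1 DMSO replicate 3 was left out. It was 1 with NTC DMSO replicate 3 left out, 4 with replicate 2 of that group left out, and 5 with N1 DMSO replicate 1 left out. Between N3 and N1 in DMSO, 13 of 48 were lower with N3 and 0 higher (background 7.48% lower and 9.91% higher), led by CENPE at -0.39. That count was 20 without N1 DMSO replicate 1.

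The difference between the N3 effect in erlotinib and the N3 effect in DMSO was tested as an interaction in limma. It was negative and passed for 29 of 48 members, positive and passed for 1, and did not pass for 18. The background was 4.27% of all genes negative and 1.63% positive. The median difference was -0.46 over the members and 0.00 over all genes. It was -1.11 for MKI67 (standard error 0.08, adjusted p = 6.74e-07), -1.06 for TOP2A (standard error 0.10, adjusted p = 5.85e-06) and -0.97 for DLGAP5. A negative difference passed for all 6 genes of spindle assembly, all 4 of chromosome structure and proliferation and 5 of 6 entry genes. It also passed for 5 of 8 kinesins, 3 of 8 kinetochore genes and 2 of 4 cytokinesis genes. Among the remaining roles it passed for 2 of 6 kinases and 2 of 6 genes of the checkpoint and sister separation. KIF18A was the positive one, at 0.47 (standard error 0.09, adjusted p = 0.00456). Its N3 effect was 0.31 in erlotinib and -0.16 in DMSO. For ECT2 the difference was 0.26 and did not pass (adjusted p = 0.195). The corresponding N1 difference passed for 5 members, ESPL1, CENPN, KIF23, TPX2 and NCAPH, all positive, against a background of 8.04% of genes positive and 6.04% negative. That count ran from 2 to 7 when each array was left out in turn, and it was 2 without NTC DMSO replicate 2, N1 erlotinib replicate 2 or N1 DMSO replicate 3. It was 3 without NTC DMSO replicate 3, N1 erlotinib replicate 1, NTC erlotinib replicate 1 or 3, or N1 DMSO replicate 1.

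Other genes of the same machinery were taken from lists of kinetochore, cohesin and condensin, anaphase-promoting complex, spindle, tubulin and transcription factor genes. With erlotinib in NTC cells, 18 of 23 other kinetochore genes were lower and 1 higher, where 25.4% of all genes were lower and 24.6% higher. KNL1, the scaffold of the outer kinetochore, fell by 2.84 and CENPI by 2.80. Of other kinesins and spindle genes 17 of 21 were lower and 1 higher, led by CKAP2L at -3.03 and KIF20B at -2.52. The median was -1.30 over the kinetochore list and -1.12 over the spindle list, smaller than that of the members. Condensin and cohesin gave 10 lower and 1 higher of 15, led by the condensin II subunit NCAPG2 at -2.10 and NCAPD2 at -1.88. Subunits of the anaphase-promoting complex, listed with its co-activator FZR1, its inhibitor FBXO5 and the ubiquitin-conjugating enzyme UBE2S, gave 9 lower and 1 higher of 16 with a median of -0.16. The largest changes were those of UBE2S (-1.58) and FBXO5 (-1.18), which are not subunits, and next came the subunit CDC27 (-0.82). Of 12 tubulins 7 were lower and 4 higher, with TUBB4B at -0.89 and TUBA1A at 0.41, and the count higher was near the share over all genes.

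A last list joins genes of DREAM and the MYB-MuvB complex with E2F1, E2F2, E2F7 and E2F8, which are E2F factors outside these complexes. Of its 16 genes, 12 were lower with erlotinib in NTC cells and 3 higher. The changes were -2.07 for E2F8 and -2.03 for E2F7, both repressors outside the complexes, -1.64 for MYBL2, the activator, and -1.43 for RBL1, the pocket protein p107. The genes that rose were TFDP2, by 0.59, RBL2, the pocket protein p130 of DREAM, by 0.37, and LIN37, by 0.16. With N3 in erlotinib, where 10.5% of all genes were lower and 7.93% higher, 5 of the 16 were lower and 0 higher, with E2F8 at -0.38 and MYBL2 at -0.35. The same comparison gave 9 of 23 other kinetochore genes lower, with CENPI at -0.72 and KNL1 at -0.70, and 5 of 21 spindle genes, with CKAP2L at -0.77. It gave 4 of 15 condensin and cohesin genes lower and 2 higher, 3 of 12 tubulins lower, and 2 of 16 genes listed with the anaphase-promoting complex lower, which is near the share over all genes. With N1 in erlotinib, where 9.15% of all genes were lower and 11.9% higher, the counts were 3 lower and 1 higher of 23 other kinetochore genes, 2 lower and 2 higher of 21 spindle genes, 1 lower and 1 higher of 15 condensin and cohesin genes, and 2 lower and 2 higher of 16 genes listed with the anaphase-promoting complex. These lie near the shares over all genes. Of the DREAM and E2F list 2 were lower and 4 higher, with E2F8 at 0.25 and MYBL2 at 0.23, and of 12 tubulins 1 was lower and 6 higher.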

How the data were processed

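Total RNA of HCC4006 cells in 6 groups of 3 was measured on 18 GeneChip Human Transcriptome Array 2.0 arrays. The authors quantified them with Expression Console and RMA (background correction, normalization between arrays, probe summary), and the deposited log2 values were used as given. No version of Expression Console or RMA, and no annotation build, is given in the sources used here. Of 70523 features, 23781 name 1 gene. Features were kept that exceeded the 50th percentile on 3 or more arrays, and the one of the highest mean was taken for each gene, leaving 16336 genes. R 4.3.3 and limma 3.58.1 (lmFit, contrasts.fit, eBayes) were run on all 18 arrays over 6 group means without a block, with Benjamini-Hochberg adjustment over all genes. Genes were called at an adjusted p under 0.05. The script was tested on simulated data. The number of arrays limits the precision.

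The members and lists were chosen with earlier results of these data known. Members were grouped by role. Values on every array were given for fixed genes, for the largest and smallest erlotinib changes of each role and for members unlike their role. Of each further list, up to 4 called genes of the largest change could be named. RBL2, TFDP2, LIN37, TUBA1A and the array values of NUF2, TPX2, KIF23 and HMMR were chosen after their values were seen. Whether replicate numbers pair the arrays was checked by correlating deviations from group means. Every value exceeded 0.1 only for N1 DMSO with NTC DMSO (0.687, 0.243 and 0.493).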

Additional observations from a re-analysis of the deposited data

Results flagged for a closer look

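The effect of N3 siRNA differed between erlotinib and DMSO for 30 members by a test of the difference itself (limma interaction, adjusted p under 0.05). Of the entry genes, the difference of the log2 fold changes (erlotinib minus DMSO) was -0.79 for CDK1, -0.66 for CCNA2, -0.50 for CCNB2 and for FOXM1, and -0.36 for CCNB1. For the kinases PLK1 and TTK it was -0.74 and -0.64, for CDC20 -0.41 and for SGO1 -0.44. At the kinetochore it was -0.80 for NUF2, -0.76 for NDC80 and -0.66 for CENPF. Among kinesins it was -0.67 for KIF4A, -0.57 for KIF20A, -0.54 for KIF14 and for KIF23, -0.26 for KIF2C and 0.47 for KIF18A. The spindle assembly genes had -0.97 (DLGAP5), -0.82 (NUSAP1), -0.79 (HMMR), -0.65 (PRC1), -0.60 (ASPM) and -0.33 (TPX2). ANLN and CEP55 had -0.82 and -0.53. The values of MKI67, TOP2A, NCAPG and NCAPH were -1.11, -1.06, -0.69 and -0.48. The calls of CCNB1, FOXM1, SGO1, KIF2C and CEP55 were lost when single arrays were left out, with adjusted p up to 0.105, 0.074, 0.0844, 0.122 and 0.0517.

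The effect of N1 siRNA differed between erlotinib and DMSO for 5 of 48 members by the same test (10.4%, against 8.04% of all genes positive and 6.04% negative, so the count lies near the share over all genes), with 0.32 for ESPL1, 0.30 for TPX2 and for NCAPH, 0.27 for KIF23 and 0.23 for CENPN. All of these except TPX2 were lost when some single arrays were left out, with adjusted p up to 0.0581 for ESPL1, 0.112 for NCAPH, 0.0619 for KIF23 and 0.0978 for CENPN.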

How the results depend on the processing

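All 48 members were lower with erlotinib under every alternative that tested them with NTC and N3 siRNA, and 46 of 48 at the Methods thresholds with N1. The limit at the 75th percentile left 46 members to test, all lower with each siRNA. Other counts moved by over 1.5 times in these cases, and the cause was not tested. At the Methods thresholds the members called were 5 lower and 0 higher with N3 and 0 higher with N1 in erlotinib, and in DMSO 0 lower for N3 and 0 higher for N1, 11 lower and 0 higher for N3 against N1 in erlotinib, 0 lower for N3 against N1 in DMSO, and 2 lower and 0 higher for the N3 interaction and 0 higher for the N1 interaction, where both the p limit and a minimum fold change differ from the calls reported. With N3 in DMSO 11 were lower at the 75th percentile and 3 in a fit of the compared arrays only. With N1 in DMSO 1 was higher with no noise filter, 4 higher and 1 lower at the 75th percentile, 1 higher and 1 lower after quantile normalization, 0 higher with the compared arrays only and 8 higher and 2 lower with a replicate block over the 6 compared arrays. For N3 against N1 in erlotinib 0 were higher with no noise filter and with the compared arrays only. The N1 interaction was higher for 3 with no noise filter, 12 after quantile normalization, 1 with the compared arrays only and 3 with the replicate block over 15 arrays. At the Methods thresholds, shares of all genes lower are given above for erlotinib against DMSO with each siRNA. They are also given above for N3 against NTC and for N3 against N1 in erlotinib. For the other counts under these alternatives no share over all genes was counted, so those counts are not read as results about the members.

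Leaving out each array in turn gave 35 to 38 lower and 2 higher for N3 in erlotinib, 11 to 15 higher for N1 in erlotinib, 2 to 10 lower for N3 in DMSO and 0 to 5 higher and 0 to 2 lower for N1 in DMSO. It gave 40 to 42 lower and 0 to 1 higher for N3 against N1 in erlotinib, 10 to 20 lower in DMSO, 24 to 32 lower and 1 higher for the N3 interaction and 2 to 7 higher for the N1 interaction. The replicate block over the 15 arrays numbered 1 to 3 gave 14 higher with N1 in erlotinib, in DMSO 6 lower for N3 and 2 higher for N1, and 14 lower for N3 against N1 in DMSO. No paired analysis was possible because of the numbers for N3 in erlotinib, which shares none with the other groups. No called change of the 30 named members took the other sign under an alternative. Changes that were not called did so in 92 cases, over 43 pairs of a member and a comparison, with CENPN, SPC25 and ESPL1 for N3 against NTC in erlotinib among them, and 0 of the 92 were called either way.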

Other observations

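The genes outside all lists whose 18 array values were most like the mean of the members were ARHGAP11A (Pearson r = 0.999), CDCA2, CDC6, LMNB1, FANCI, PRR11, RAD51AP1, MCM10, PBK and NEIL3 (r = 0.998). These r values are descriptions over arrays that fall into groups by treatment. The genes were picked by r on these same arrays, so fold changes like those of the members follow from the choice and are no further result. CDC6 and MCM10 load and start replication origins, and FANCI and RAD51AP1 act in DNA repair. Their log2 fold changes with erlotinib in NTC cells ran from -2.98 (PBK) to -2.26 (LMNB1). With N3 in erlotinib they ran from -0.67 (PBK) to -0.32 (LMNB1), and with N1 in erlotinib from 0.03 (PBK) to 0.31 (CDC6).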
